A study of Mus musculus with 30 samples.

Results

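Muscle cells in culture were compared between 12 h and 24 h of a time course. The comparison used the 12 arrays of these hours among the 30 arrays of the series, chosen by the hour in each title. The cultures, labelled as mouse leg muscle, had 3 replicates at each of hours 0, 4, 12, 24 and 48, and their RNA was hybridised to both chips (A and B) of an Affymetrix oligonucleotide set. Each hour compared here therefore had 3 A arrays and 3 B arrays, and the chips were tested separately. The 12 h and 24 h groups differ in the labels by the hour alone. The labels give no strain, genotype, age, medium or treatment, and they do not name the event that starts the clock. Nor do they state whether each replicate is a culture of its own. The p-values therefore reflect the scatter among these arrays, part or all of which may be technical.

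Skeletal myoblasts that stop dividing express myogenin and other regulators first and the structural proteins of the contractile apparatus after that, while they fuse into multinucleated myotubes. Id proteins hold myoblasts undifferentiated by binding the partners of the myogenic factors, and Notch and BMP signalling keep Id and related genes active. Sarcomeres then mature around the Z-disc, which anchors the thin filaments and carries many of the proteins that sense stretch.

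Values are intensities in array units, scaled by the submitters so that every array used here had a 2%-trimmed mean of 500.1 to 500.2, and changes are log2(24 h / 12 h) after adding a pseudocount of 29 on A and 54 on B. The number of arrays, 3 per hour and chip, limits the precision. The 10 markers of muscle listed for the check of the labels were all measured, and their summed intensity was 81614 to 86949 at 12 h and 82278 to 89828 at 24 h. Fewer of the markers of other cell types passed the filter on dim probe sets. The tested probe sets held 4 of 13 fibroblast, 3 of 10 adipocyte, 3 of 11 endothelial and 4 of 12 macrophage and leukocyte markers. They also held 6 of 8 pericyte and smooth muscle, 2 of 8 Schwann and glia, 3 of 10 chondrocyte and bone, 6 of 8 neuron and 0 of 4 erythroid markers. Pdgfra, Pdgfrb, Dcn, Lum, Pecam1, Cdh5, Ptprc and Adipoq were not among them. The 4 measured fibroblast markers summed to 18997 to 19519 at 12 h and 17076 to 21295 at 24 h. The share of other cell types in the cultures was not tested. Replicate 3 differed from replicates 1 and 2 over all hours on 33.9% of A and 14.8% of B probe sets at an adjusted p under 0.05.

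Few probe sets passed the test of the step from 12 h to 24 h. In limma with hour as the only factor, 0 of 13576 A probe sets (814 at an unadjusted p under 0.05, smallest adjusted p 0.054) and 0 of 13507 B probe sets (837 unadjusted, smallest adjusted p 0.422) were called at a Benjamini-Hochberg adjusted p under 0.05. With a term for replicate 3 the log2 changes are the same and their standard errors smaller. That model, called the batch model here, called 41 A probe sets (0.302%), of which 11 were higher (0.081%) and 30 lower (0.221%) at 24 h, and 6 B probe sets (0.0444%), of which 4 were higher (0.0296%) and 2 lower (0.0148%). With the replicate number as a block, 33 A probe sets (0.243%) and 3 B probe sets (0.0222%) were called. Leaving out 1 array of replicate 1 or 2 at either hour left 10 to 12 calls on A, and leaving out the array of replicate 3 gave 72 at 12 h and 89 at 24 h. On B, 3 calls were left without replicate 1 at 12 h and 1 without replicate 2 at either hour, and 22 were made without replicate 3 at 24 h. Replicates 1 and 2 alone gave 366 calls on A (2.7%) and 149 on B (1.1%). Unless another model is named, "rose" and "fell" refer to calls of the batch model, and adjusted p-values are from limma's batch model with Benjamini-Hochberg adjustment over all tested probe sets of a chip.

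Fewer probe sets were called at this step than at the one that followed. In the batch model the 8 h step from 4 h to 12 h had 12 calls on A (0.0884%) and 2 on B (0.0148%), and the 24 h step from 24 h to 48 h had 349 on each chip (2.57% on A and 2.58% on B). The steps differ in length, and neighbouring steps share an hour's arrays. The test of the difference itself called 0 probe sets on either chip against the step before (762 on A and 906 on B at an unadjusted p under 0.05) and 19 on A (0.14%) and 44 on B (0.326%) against the step after. With hour as the only factor the latter were 1 on A (0.00737%) and 0 on B (1174 unadjusted).

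The 41 A probe sets included 36 that name 1 gene each, for 33 genes, 9 of which rose and 24 fell, and the 6 B probe sets named 6 genes. Fold differences ran from 1.48 to 3.77 on A, with a median of 1.92, and 20 of the 41 were at least 2-fold. All 41 moved the same way in each of the 3 same-numbered pairs, and on 25 of them the arrays of the 2 hours did not overlap. Of all A probe sets 17% were higher and 22.1% lower at 24 h in each pair. Over all A probe sets, 5.89% had every 24 h array above every 12 h array and 6.78% had every one below. On B, 5 of the 6 called probe sets did not overlap, against 4.5% above and 6.56% below over all B probe sets. The calls were made from these same arrays, so these counts describe the called probe sets and are no separate evidence for them. Of the 28 named probe sets called, 6 (Car2, Car3, Cxcr4, Id3, Islr and Rpl37a) were called in all 17 or 18 alternatives run for them that did not drop the term for replicate 3 from the full set of arrays, and 22 were lost in at least 1. The share of rises among the A calls depended on the scaling. It was 26.8% as deposited and 48.9% (23 of 47) when each array was centred on its median, which moved the median change of all A probe sets from -0.034 to 0.042.

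For the genes that fell and rose together, the 250 bases before the annotated start are shown for a pair of each, because myogenic factors bind E-boxes, which Id proteins keep them from. The sequences are RefSeq's for GRCm38.p6, read 5′ to 3′ on the gene's strand, and capitals mark the E-box CANNTG, which muscle regulatory factors bind with their partners. Csrp3 (chr7:48848052-48848301, minus strand) and Hspb7 (chr4:141420529-141420778, plus strand) rose. Islr (chr9:58158555-58158804, minus strand) and Id3 (chr4:136143572-136143821, plus strand) fell.
Csrp3: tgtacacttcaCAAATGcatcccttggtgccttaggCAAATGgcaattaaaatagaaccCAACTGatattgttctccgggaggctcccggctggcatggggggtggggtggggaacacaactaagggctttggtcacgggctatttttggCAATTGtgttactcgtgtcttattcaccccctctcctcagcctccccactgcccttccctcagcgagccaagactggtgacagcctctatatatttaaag
Hspb7: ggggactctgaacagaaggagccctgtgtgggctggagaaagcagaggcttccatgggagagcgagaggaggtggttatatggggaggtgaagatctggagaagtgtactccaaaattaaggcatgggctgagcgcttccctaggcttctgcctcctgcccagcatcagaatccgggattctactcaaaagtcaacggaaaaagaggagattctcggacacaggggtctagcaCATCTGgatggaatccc
Islr: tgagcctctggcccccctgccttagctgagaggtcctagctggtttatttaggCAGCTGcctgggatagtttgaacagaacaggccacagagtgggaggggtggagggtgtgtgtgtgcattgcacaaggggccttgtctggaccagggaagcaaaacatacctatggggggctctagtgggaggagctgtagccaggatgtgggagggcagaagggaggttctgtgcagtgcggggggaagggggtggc
Id3: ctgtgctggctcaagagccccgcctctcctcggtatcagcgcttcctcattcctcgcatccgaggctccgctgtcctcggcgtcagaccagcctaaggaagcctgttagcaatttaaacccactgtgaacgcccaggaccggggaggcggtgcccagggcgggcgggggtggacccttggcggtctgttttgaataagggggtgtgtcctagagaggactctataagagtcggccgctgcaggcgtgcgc

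Csrp3 held 4 E-boxes, Hspb7 1 and Islr 1, which was of the form CAGCTG, and no CANNTG stands in the Id3 window. Of the 27 named genes that were called, 19 had an entry in the promoter table. An E-box stood in 6 of 9 windows of genes that rose and in 6 of 10 of genes that fell, against 66.2% of the 32841 windows of this length. CAGCTG stood in 1 of 9 and 3 of 10, against 13% of all windows. GGCGCC, the core of a BMP-responsive element, stood in 1 of 9 and 1 of 10, against 9.59%, and overlapped no other motif in these windows. The MEF2 motif was found in the window of Prss23 alone and the CArG box in none, against 2.92% and 1.47% of all windows. Both strands were searched, a gene with several starts was represented by the one farthest upstream, and a match describes the letters in the window and no more.

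The inhibitors Id3 and Id1 and the factor Atoh8 fell, and Id2 did not pass the test. Id3, an inhibitor of the partners of myogenic factors, read 2611.1, 2397.0 and 1997.5 at 12 h and 1202.5, 1152.6 and 850.6 at 24 h in replicates 1, 2 and 3. Every 24 h array lay below every 12 h array, and the log2 change was -1.11 (SE 0.128, adjusted p = 0.00098). Id1, its close relative, read 4065.7, 3842.7 and 2030.2 at 12 h and 2305.4, 1939.9 and 1324.6 at 24 h, a change of -0.80 (adjusted p = 0.0249). Here replicate 3 was lower than the others at both hours, so the 12 h and 24 h arrays overlap although each pair was lower at 24 h. Atoh8, a basic helix-loop-helix factor, read 246.7, 201.4 and 192.0 and then 106.0, 122.3 and 34.4, a change of -1.15 (adjusted p = 0.0357, 0.055 with the replicate block). Id2 missed the threshold at -0.51 (adjusted p = 0.359). In replicates 1 and 2 alone Dll1, a Notch ligand, and Notch3, a Notch receptor, also fell, at -0.72 and -0.88. Neither passed in the batch model, and both are named here after their values were seen.

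Of the 22 measured genes of proliferating myoblasts and Notch signalling, 0 rose and 2 fell (Id1 and Id3), against 0.0643% higher and 0.177% lower over the 12446 genes measured. The list's median change was -0.26, against -0.039 over all genes. In all 3 pairs 10 of the 22 were lower and 1 was higher, where all genes gave 21.1% and 15.6%. Of 22 measured genes of BMP and TGF-beta signalling 0 rose, and Atoh8 was the 1 that fell. The Smad and Bmp genes of that list did not pass the test, and its median was 0.13.

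The myogenic regulators themselves did not pass the test. Myog, the factor that starts terminal differentiation, read 12722.0, 12100.4 and 11160.1 at 12 h and 10863.0, 11700.1 and 10333.1 at 24 h, a change of -0.13 (adjusted p = 0.643). Myod1, which commits cells to the lineage, gave -0.23 (adjusted p = 0.471), Myf5 -0.35 and Myf6 0.25, with overlapping arrays for each. Mef2c, a partner of the myogenic factors, read 2188.1, 2176.6 and 2125.4 at 12 h and 4668.6, 5170.0 and 2998.9 at 24 h. All 3 arrays at 24 h were above all at 12 h and replicate 3 moved least, and the change of 0.94 had an adjusted p of 0.191, or 0.0018 in replicates 1 and 2 alone. The other 4 tested probe sets of Mef2c gave 0.78 to 1.35. Mef2d had a change of 0.40 (adjusted p = 0.21) and Mef2a one of -0.04 (adjusted p = 0.889). Of the 13 measured muscle transcription factors 0 rose and 0 fell, with a median of -0.09. Mef2c and Tead4 rose in replicates 1 and 2 alone, where 1.53% of all genes did.

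**Figure D1:**
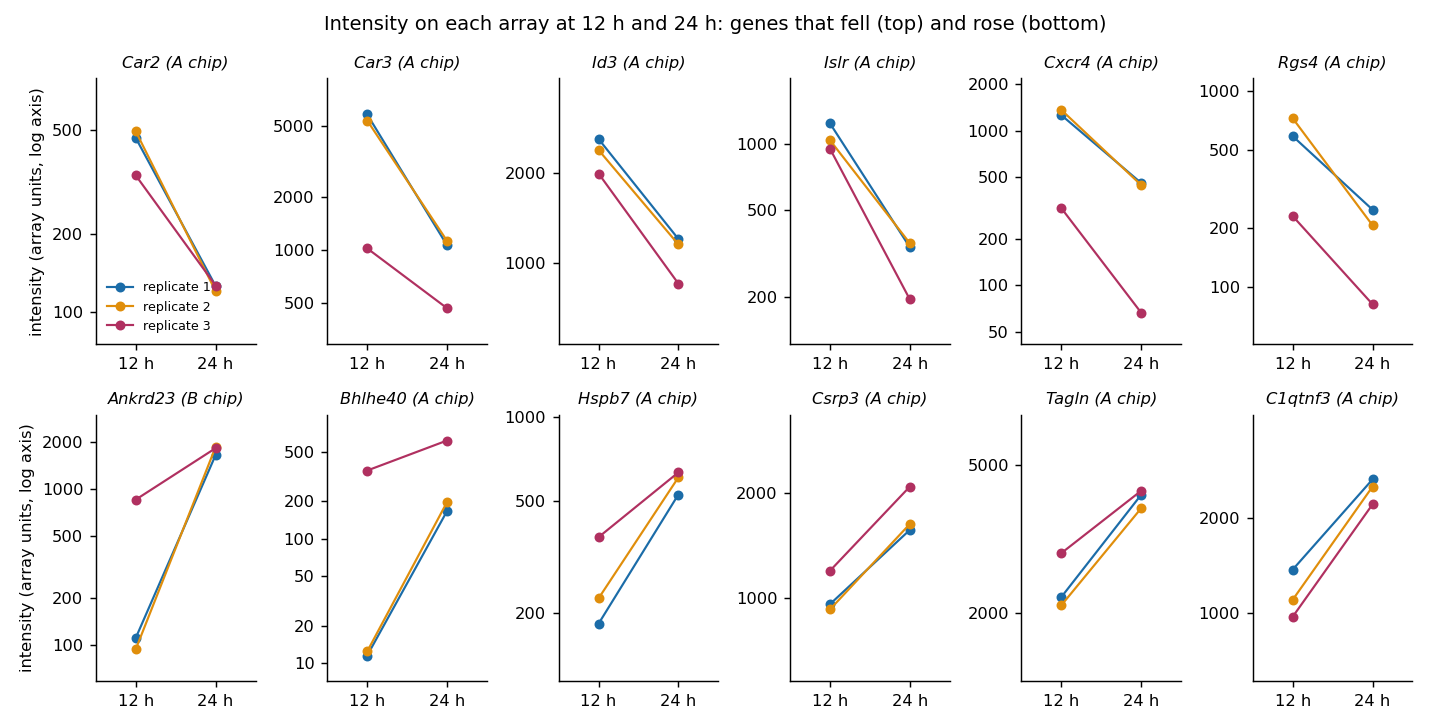
Intensity (array units, log axis, range set per panel) on each array at 12 h and 24 h for 6 genes that fell (top) and 6 that rose (bottom), with a line for each of the 3 replicates. Each line goes the same way within a panel, and replicate 3 starts farthest from the others for Car3, Cxcr4, Rgs4, Ankrd23 and Bhlhe40.

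Ankrd23, Csrp3 and Hspb7, which encode proteins of striated muscle, rose. Ankrd23, a stretch-responsive ankyrin repeat protein of the titin filament, read 110.7, 93.7 and 851.8 at 12 h and 1644.2, 1852.7 and 1820.6 at 24 h on the B chip. The 24 h arrays were close together and the 12 h arrays were not, with replicate 3 well above the others. The fitted change was 2.70, or 6.51-fold (SE 0.426, adjusted p = 0.0393, 0.0618 with the replicate block). Csrp3, the muscle LIM protein of the Z-disc, read 961.3, 929.1 and 1197.3 and then 1565.6, 1627.4 and 2080.8, a change of 0.75 (SE 0.123, adjusted p = 0.0132). The arrays did not overlap and the pairs gave 0.69, 0.79 and 0.78. Hspb7, a small heat shock protein of striated muscle, read 183.4, 225.8 and 373.0 and then 529.3, 609.1 and 634.6, a change of 1.15 (SE 0.206, adjusted p = 0.0224), and its other probe set gave 1.27 (adjusted p = 0.0871). Of the 16 measured small heat shock proteins and chaperones it was the 1 that rose, and 0 fell. Over all genes 0.0643% rose and 0.177% fell.

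Genes of contraction and its energy supply were mostly higher at 24 h, although few passed the test. Together 7 lists of sarcomere isoforms, filaments, Z-disc, excitation-contraction coupling and muscle energy supply held 101 measured genes. Of these 85 had a positive and 16 a negative change, 2 rose (Csrp3 and Ankrd23) and 0 fell. Over all genes 43.6% had a positive change, 0.0643% rose and 0.177% fell. In all 3 pairs 62 of the 101 (61.4%) were higher and 7 (6.93%) lower, where all genes gave 15.6% and 21.1%, and the median change was 0.43. The rise was not particular to this step. The median of the same genes was 0.485 from 4 h to 12 h and -0.102 from 24 h to 48 h, and these steps share arrays. In replicates 1 and 2 alone 40 rose and 0 fell, against 1.53% and 0.996% of all genes. From 12 h to 24 h the median change was 0.46 in replicate 1, 0.61 in replicate 2 and 0.17 in replicate 3. The medians of all genes were -0.04, -0.05 and -0.01. In 77 of the 101 the value was smaller in replicate 3 than in the mean of the others. This was not counted over all genes, so the 77 are not shown to be particular to these lists. Over all hours 35 of these genes were lower and 11 higher in replicate 3. Of the 12446 genes measured 1880 were lower and 1815 higher there.

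Within these lists the medians ran from 0.30 for slow and cardiac isoforms to 0.49 for the thick filament and M-band. Of the 26 measured thin filament and Z-disc genes 15 were higher in all 3 pairs and 1 lower, where all genes gave 15.6% and 21.1%. In replicates 1 and 2 alone 10 of the 26 rose, against 1.53% of all genes. Tcap, which caps titin at the Z-disc, read 270.9, 248.4 and 557.2 at 12 h and 1122.8, 939.1 and 923.5 at 24 h, with no overlap, a change of 1.48 (adjusted p = 0.0937). Lmcd1, a LIM protein, gave 1.47 and Capn3, the muscle calpain, 1.40, both with an adjusted p of 0.0835. Ankrd2, a relative of Ankrd23, gave 0.93 with an adjusted p of 0.055. Ankrd1, the third of that family, read 6677.0, 7699.3 and 6022.2 and then 5999.5, 6386.9 and 5606.4, a change of -0.17 (adjusted p = 0.645). These genes, apart from Ankrd1, Ankrd23 and Lmcd1, are named after their values were seen.

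The myosin heavy chains differed in size of change and none passed the test. Myh7, the slow isoform, read 255.6, 237.5 and 557.3 at 12 h and 882.3, 806.2 and 1002.3 at 24 h, a change of 1.38 (adjusted p = 0.169). Myh8, the perinatal isoform, gave 1.21 (adjusted p = 0.254), Myh1, a fast adult isoform, 0.59 (adjusted p = 0.361) and Myh3, the embryonic isoform, 0.27 (adjusted p = 0.59). Myh4, another fast adult isoform, gave -0.04 on B (adjusted p = 0.984), a value that turns sign under other settings. For Myh7, Myh1 and Myh3 every 24 h array lay above every 12 h array, and for Myh8 replicate 3 at 12 h lay above replicates 1 and 2 at 24 h. In replicates 1 and 2 alone Myh7, Myh8 and Myh1 rose, with adjusted p-values of 0.00042, 0.0085 and 0.026. The other tested probe set of Myh1 gave 0.45 and did not pass there either (adjusted p = 0.333). The readings of the sarcomeric actins were alike at both hours within the spread of the arrays. They lay near the top of the A arrays of these hours, whose highest readings were 17819.1 to 21755.4. Whether readings that high show a change in full was not tested. Acta1 read 13657.9 to 14973.8 at 12 h and 13860.9 to 15434.7 at 24 h, a change of 0.03, and Actc1 gave -0.07. Both values turn sign under at least 1 other setting.

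On their A probe sets Cav3, Mb, Fabp3 and Ckm gave smaller changes in replicate 3 than in replicates 1 and 2. No A probe set passed the test of that difference. Cav3, the muscle caveolin, read 888.4, 866.2 and 1168.2 at 12 h and 2932.4, 2398.3 and 1474.4 at 24 h, a change of 1.15 (adjusted p = 0.162). Mb, myoglobin, read 2429.9, 2381.7 and 4374.9 and then 6430.9, 6591.3 and 4938.9, a change of 1.01 (adjusted p = 0.278). Fabp3, a fatty acid carrier, read 216.2, 213.7 and 425.7 and then 945.0, 773.7 and 497.8, a change of 1.31 (adjusted p = 0.209). On these probe sets of Cav3, Mb and Fabp3 the 24 h arrays lay above the 12 h arrays. Replicate 3 was the highest at 12 h and the lowest at 24 h on each. A B probe set of Fabp3 read 682.2, 686.8 and 661.7 and then 588.6, 447.0 and 551.1. There every 24 h array lay below every 12 h array, a change of -0.33 (adjusted p = 0.686), so the probe sets of Fabp3 disagree. Ckm, the muscle creatine kinase, read 1667.7, 1486.4 and 2346.5 and then 2690.6, 3365.3 and 2288.6, a change of 0.60 (adjusted p = 0.365), with replicate 3 flat. A B probe set of Ckm gave 0.01 (adjusted p = 0.994). Of 21 measured excitation-contraction coupling genes 12 were higher and 1 lower in all 3 pairs, and of 17 energy supply genes 11 were higher and 2 lower. All genes gave 15.6% higher and 21.1% lower. Cav3, Mb and Fabp3 are named after their values were seen.

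A test of the step in replicate 3 against the step in replicates 1 and 2 called 0 A probe sets (934 at an unadjusted p under 0.05) and 2 B probe sets (0.0148%), Mylk4 and Cthrc1. Replicate 3 also served as a look-up of calls it had no part in. Of the 196 A probe sets that rose in replicates 1 and 2 alone 157 (80.1%) were higher at 24 h in replicate 3, where 49.7% of all A probe sets were. Of the 170 that fell 124 (72.9%) were lower there, where 50.2% of all were. The median change of the rises was 0.91 in replicates 1 and 2 and 0.22 in replicate 3, and that of the falls -0.86 and -0.24. The first median of each pair comes from the arrays that chose the probe sets. On B the same look-up gave 100 of 120 rises (83.3%), where 49.4% of all B probe sets were higher, and 18 of 29 falls (62.1%), where 50.6% were lower.

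**Figure D2:**
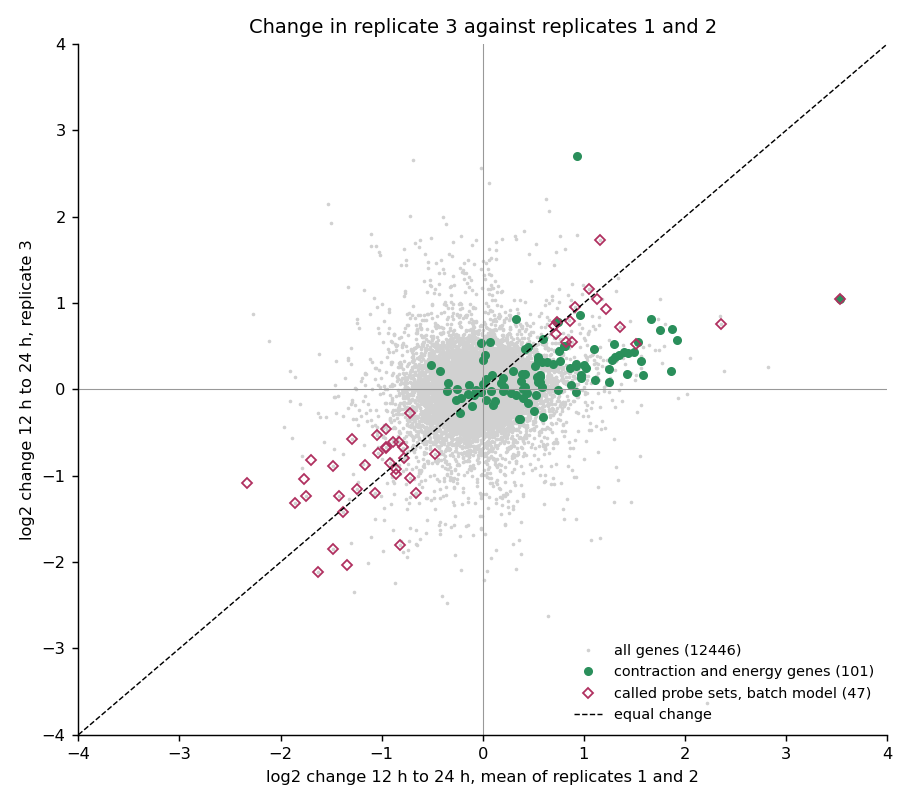
Log2 change from 12 h to 24 h in replicate 3 (vertical axis) against the mean change in replicates 1 and 2 (horizontal axis) for 12446 genes (grey), 101 contraction and energy genes (green) and the 47 probe sets called in the batch model on both chips (open diamonds), with the line of equal change dashed. Of the green points 77 lie below the dashed line, and the grey points below it were not counted.

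Genes of the neuromuscular junction and of fusion and sarcolemma had small median changes, and more were higher than lower in all 3 pairs. Of the junction genes 30% were higher and 20% lower, and of the fusion and sarcolemma genes 36% and 12%. All genes gave 15.6% and 21.1%, with a median of -0.039. Of 10 measured genes of the neuromuscular junction 0 rose and 0 fell, with a median of 0.06, and Chrna1, a subunit of the acetylcholine receptor, read 9407.2 to 11427.9 at 12 h and 10531.5 to 10859.4 at 24 h. Of 25 fusion and sarcolemma genes 0 rose and 0 fell, with a median of 0.09. In replicates 1 and 2 alone Cav3, Dysf, which repairs the membrane, and Jam2, an adhesion molecule, rose, and Dock1 fell. Those were 3 and 1 of the 25, against 1.53% and 0.996% of all genes.

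The carbonic anhydrases Car2 and Car3 and the receptor Cxcr4 fell. Car2, a cytosolic carbonic anhydrase, read 466.4, 494.5 and 334.7 at 12 h and 125.7, 120.0 and 126.2 at 24 h, a change of -1.57 (SE 0.161, adjusted p = 0.000383). The 24 h arrays agreed closely and lay far below the 12 h arrays. Car3, the carbonic anhydrase typical of slow muscle, read 5831.0, 5389.9 and 1017.1 and then 1060.0, 1122.3 and 466.2, a change of -1.91 (SE 0.271, adjusted p = 0.00427). Replicate 3 was low at both hours, so the groups overlap. A further A probe set of Car3 fell by 1.22 on the log2 scale, and both on B, at -0.91 and -0.90, did not pass the test. Cxcr4, the receptor for the chemokine Cxcl12, read 1260.5, 1362.0 and 314.8 and then 458.6, 444.6 and 66.3, a change of -1.60 (SE 0.197, adjusted p = 0.00122).

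Rgs4 and Rgs5, which shorten signalling through G proteins, fell as well. Rgs4 fell on all 3 of its A probe sets, by 1.36, 1.41 and 1.52 on the log2 scale, and read 588.6, 726.3 and 229.7 at 12 h and 247.9, 206.2 and 81.4 at 24 h on the one with the smallest p. The call of the probe set at -1.52 was lost with the replicate block (adjusted p = 0.065). Rgs5 read 1813.4, 1785.2 and 69.1 and then 709.0, 633.7 and 7.8, a change of -1.40 (SE 0.203, adjusted p = 0.00529). In replicate 3 the reading at 24 h was below the pseudocount. The other 3 tested probe sets of Rgs5 gave -0.78, -0.81 and -0.94 and did not pass the test (adjusted p = 0.307 to 0.349). On each of them replicates 1 and 2 were lower at 24 h and replicate 3 was higher, at 71.5 and then 77.6, 14.4 and then 22.4, and 12.5 and then 23.8, so the probe sets disagree in replicate 3. Rgs5 is also a marker of pericytes, and in bulk RNA fewer cells of a type and less RNA per cell cannot be told apart. Of the 8 pericyte and smooth muscle markers 6 were measured. Of these 1 fell (Rgs5, on the probe set that represents it) and 0 rose, against 0.177% and 0.0643% of all genes. The summed intensity of the 6 markers was 15345 to 19143 at 12 h and 16792 to 17590 at 24 h. Most of that sum was Acta2, which read 12607.2 to 14705.3 at 12 h and 13420.5 to 13604.0 at 24 h, so the sum says little about the other markers. Abcc9, another of the 6, read 711.9, 720.5 and 1401.4 and then 1866.5, 2069.1 and 2019.6 on B. Its change of 1.10 did not pass the test (adjusted p = 0.0941). In replicates 1 and 2 alone 1 marker rose (Abcc9) and 2 fell (Rgs5 and Notch3), against 1.53% and 0.996% of all genes. Abcc9 is named after its values were seen. The part of these markers in the result was not tested.

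Islr, Smoc2, Igfbp5 and Lrrc17, which encode secreted proteins, fell. Islr, a secreted immunoglobulin and leucine-rich repeat protein, read 1234.7, 1035.3 and 947.1 at 12 h and 338.2, 352.5 and 196.0 at 24 h, a change of -1.79 (SE 0.221, adjusted p = 0.00122). Smoc2, a calcium-binding matrix protein, read 300.7, 344.1 and 447.6 and then 94.5, 46.6 and 162.4, a change of -1.68 (SE 0.28, adjusted p = 0.0132). On these probe sets the arrays of the 2 hours did not overlap. The other tested probe set of Smoc2 gave -0.83 and did not pass the test (adjusted p = 0.167), and that of Igfbp5 gave -0.63 (adjusted p = 0.314). Igfbp5, which binds insulin-like growth factors, fell by 0.88 on the log2 scale (adjusted p = 0.0147) and Lrrc17, a secreted leucine-rich repeat protein, by 0.88 on B (adjusted p = 0.0137). Lrrc17 read 14543.0, 13616.8 and 8162.8 at 12 h and 7647.9, 7795.9 and 4293.5 at 24 h. Of the 14 measured genes of the insulin-like growth factor system Igfbp5 was the 1 that fell, and 0 rose. Over all genes 0.177% fell and 0.0643% rose.

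Of the 22 measured genes of secreted matrix proteins 0 rose and 2 fell (Islr and Smoc2), against 0.0643% and 0.177% of all genes. The median of the 22 was -0.20, and of the 26 collagens 0 rose and 0 fell, with a median of -0.07. Over these and the 13 proteases and inhibitors, 61 genes in all, 18 (29.5%) were lower and 7 (11.5%) higher in all 3 pairs. All genes gave 21.1% lower and 15.6% higher. The replicates differed in sign: the median of the 61 was -0.27 in replicate 1, -0.32 in replicate 2 and 0.14 in replicate 3. In replicates 1 and 2 alone 9 of the 61 fell and 0 rose, against 0.996% and 1.53% of all genes. Vcan, a large proteoglycan, read 412.5, 469.0 and 362.4 and then 190.7, 189.5 and 459.7, and Col3a1 read 2723.5, 2957.8 and 3054.3 and then 1647.7, 1764.0 and 3772.0. On these probe sets both were lower at 24 h in replicates 1 and 2 and higher in replicate 3. Further A probe sets of Vcan gave -0.46 and -0.63. A B probe set of Vcan read 97.6, 157.2 and 58.9 and then 155.7, 302.9 and 177.4. Its change was 0.75 (adjusted p = 0.501), so the probe sets of Vcan disagree. Vcan and Col3a1 are named after their values were seen. The summed intensity of the 4 measured fibroblast markers was 18997 to 19519 at 12 h and 17076 to 21295 at 24 h, and its part in these values was not tested.

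Other genes that fell on A were Cyp1b1, a cytochrome P450, at -0.90, and, with values given after they were seen, the imprinted genes Mest at -0.83 and Peg3 at -0.57, Mycl, a relative of Myc, at -0.78, Selp at -0.90, Gas6, a ligand of the Axl receptor family, at -0.94, and Gstm1, a glutathione transferase, at -0.75. The call of Peg3 was lost with the replicate block (adjusted p = 0.065). Further probe sets that did not pass the test were 1 of Cyp1b1, 2 of Peg3, 2 of Mycl, 2 of Selp, 3 of Gstm1 and 1 of Gas6. All of them were negative, and that of Gas6 was near 0 at -0.10 (adjusted p = 0.954). Mest read 9108.8, 8725.8 and 4887.0 at 12 h and 5214.1, 5564.0 and 2380.5 at 24 h. Slc7a2, a carrier of cationic amino acids, fell on B, from 1096.0, 1198.0 and 781.8 to 396.8, 356.6 and 396.6, a change of -1.28 (SE 0.166, adjusted p = 0.00733). Rpl37a, a ribosomal protein gene, fell on 1 probe set by 1.58 on the log2 scale (adjusted p = 0.00307). Its other 2 probe sets gave -0.21 and -0.07 and did not pass the test, so the probe sets disagree. Of 31 measured cytosolic ribosomal protein genes 0 rose and 0 fell.

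Outside the sarcomere, Rflnb rose on 1 probe set of each chip. Rflnb, which binds filamins, read 3728.3, 3672.7 and 6111.3 at 12 h and 8399.8, 7897.9 and 12654.8 at 24 h on B, a change of 1.10 (SE 0.128, adjusted p = 0.00377), and rose by 0.92 on its A probe set (adjusted p = 0.0132). On these probe sets the arrays of the 2 hours did not overlap. A second B probe set of Rflnb read 1243.1, 1275.6 and 1972.0 and then 2258.9, 1086.3 and 2056.2, with overlap and with replicate 2 lower at 24 h, a change of 0.22 (adjusted p = 0.848), so the probe sets disagree. Tagln, an actin-binding protein of smooth muscle that immature muscle also makes, read 2203.8, 2093.9 and 2894.6 and then 4158.6, 3824.5 and 4262.7, a change of 0.77 (SE 0.151, adjusted p = 0.0357). It was the 1 of 12 measured smooth muscle contractile genes that rose, and 0 fell, against 0.0643% and 0.177% of all genes. Acta2, the smooth muscle actin of the same list, gave -0.02 on its A probe set (adjusted p = 0.954). Its B probe set read 1942.5, 1654.3 and 1661.4 and then 3313.2, 3029.9 and 1761.1, higher in each pair, a change of 0.56 that did not pass the test (adjusted p = 0.308, 0.0975 in replicates 1 and 2 alone).

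C1qtnf3, a secreted protein of the C1q and TNF family, read 1372.1, 1100.6 and 972.0 and then 2654.3, 2517.3 and 2211.0, a change of 1.09 (adjusted p = 0.0132), with no overlap. Bhlhe40, a repressor of transcription that also belongs to the circadian system, read 11.5, 12.4 and 352.5 and then 166.2, 196.4 and 614.0. Each pair was higher at 24 h, but replicate 3 at 12 h was above replicates 1 and 2 at 24 h. Its change of 1.82 (adjusted p = 0.0143) understates the ratio in replicates 1 and 2, whose 12 h readings were below the pseudocount of 29. Sox11, a transcription factor of progenitor cells, read 2042.4, 2024.3 and 2224.9 and then 3571.7, 3234.9 and 3512.1 on B, a change of 0.70 (adjusted p = 0.0428, 0.0836 with the replicate block). The other 5 tested probe sets of Sox11 gave 0.24 to 0.93 and did not pass the test (adjusted p = 0.116 to 0.807), and on the one with the smallest change replicate 3 went from 2308.7 to 1813.0.

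The remaining named rises were called in the batch model but not with the replicate block. Ano1, a calcium-gated chloride channel, rose by 1.35 on B (adjusted p = 0.0428, 0.0618 with the replicate block), Prss23, a secreted protease, by 0.84 (0.0432 and 0.0675) and Pmepa1, which restrains TGF-beta signalling, by 0.73 (0.0451 and 0.075). Cnn3, a calponin, rose by 1.18 on a probe set that reads 644.7 to 777.3 at 12 h (adjusted p = 0.0428, 0.0675 with the replicate block). Its other 5 tested A probe sets gave -0.02 to 0.92 and did not pass the test, and nor did the other 2 of Prss23 (0.38 and 0.65) or of Pmepa1 (0.39 and 0.54).

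Cell division genes did not pass the test at this step. Of 34 measured S-phase genes 0 rose and 0 fell, with a median of -0.23, and 21 were lower and 1 higher in all 3 pairs. Of 48 mitosis genes 0 rose and 0 fell, with a median of -0.13, and 16 were lower and 0 higher. In all 3 pairs 61.8% of the S-phase and 33.3% of the mitosis genes were lower, where all genes gave 21.1% lower and 15.6% higher. Over both lists the median was -0.37 from 4 h to 12 h, -0.15 from 12 h to 24 h and 0.55 from 24 h to 48 h, and these steps share arrays. Top2a, which untangles DNA at mitosis, read 524.3, 455.9 and 1561.9 at 12 h and 402.2, 433.1 and 1885.5 at 24 h. Of the 82 genes of both lists 81 were higher in replicate 3 over all hours, where 1815 of all 12446 genes were. Cdkn1a, an inhibitor of the cell cycle, read 9558.4 to 12292.6 at 12 h and 9136.6 to 11792.2 at 24 h. Cdkn1c, another inhibitor, gave 0.49 (adjusted p = 0.365), and Ccnd1, cyclin D1, -0.23 (adjusted p = 0.495).

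Genes of the amino acid response were shifted slightly upward without a call. Of 28 measured members 15 (53.6%) were higher and 1 lower in all 3 pairs, 0 rose and 0 fell, and the median was 0.16. All genes gave 15.6% higher and 21.1% lower in all 3 pairs. Fgf21, a secreted hormone that stressed muscle makes, read 2444.1, 2575.6 and 832.3 and then 3858.0, 3659.8 and 1556.7, a change of 0.68 (adjusted p = 0.169). Each pair was higher at 24 h, and replicate 3 read lowest at both hours. Asns, asparagine synthetase, read 4428.0, 4668.7 and 4893.8 and then 5413.5, 5266.7 and 6115.0, with no overlap, a change of 0.26 (adjusted p = 0.397). Of 22 genes of protein folding in the endoplasmic reticulum 12 (54.5%) were higher and 2 (9.09%) lower in all 3 pairs. In that list 0 rose and 0 fell, and the median was 0.12. Of 47 oxidative phosphorylation genes 4 (8.51%) were higher and 11 (23.4%) lower in all 3 pairs, the latter near the share of all genes, with a median of -0.05.

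**Figure D3:**
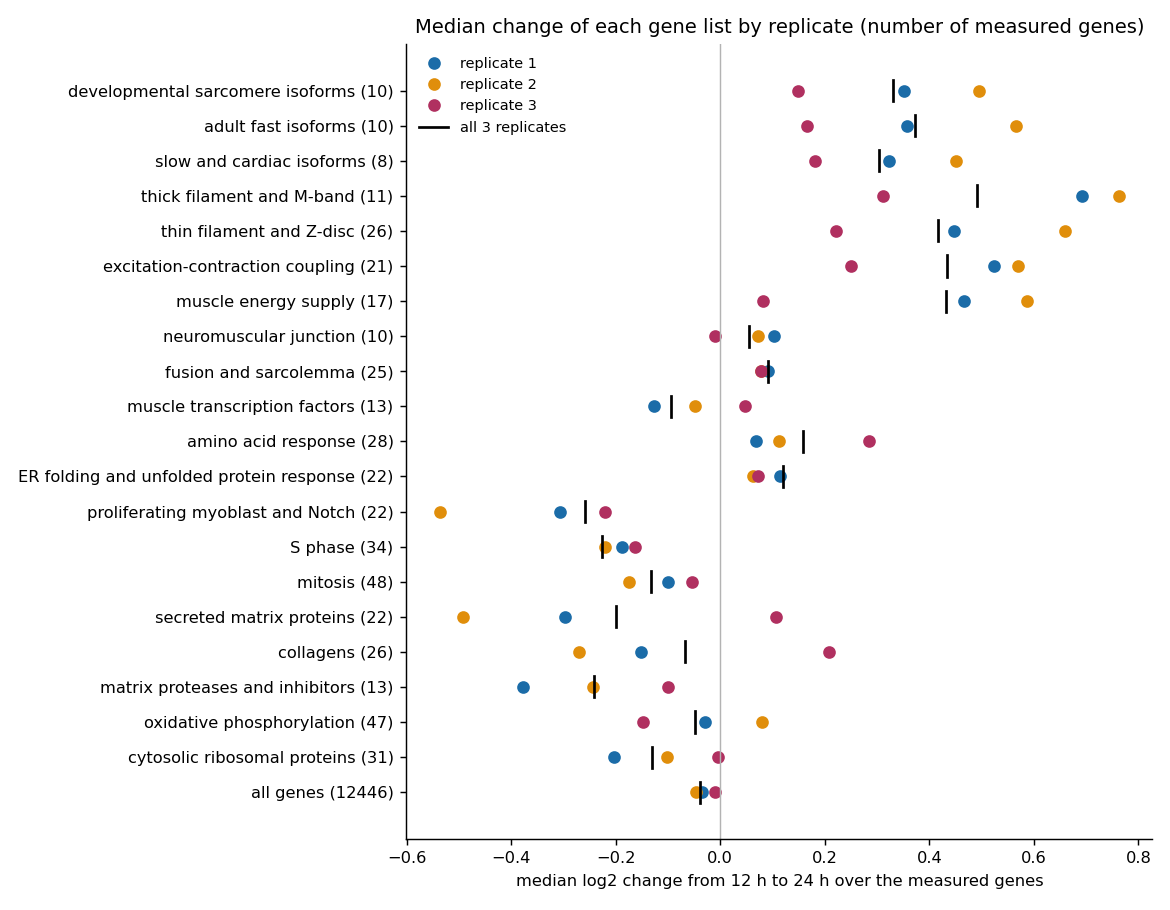
Median log2 change from 12 h to 24 h (horizontal axis) over the measured genes of each list, whose number is in parentheses, for each replicate (points) and for the fitted change over all 3 (bar). The contraction and energy lists lie to the right of all genes in every replicate and closest to 0 in replicate 3, and the collagen and secreted matrix lists change sign between replicates.

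The step differed from the one that followed for several of the genes above. Tagln rose by 0.77 on the log2 scale from 12 h to 24 h and fell by 1.33 from 24 h to 48 h (adjusted p of the difference 0.00524), with all 3 replicates highest at 24 h. The B probe set of Acta2 had a change of 0.56 and then fell by 1.75 (adjusted p of the difference 0.0108), and Ankrd2 one of 0.93 and then fell by 1.21 (adjusted p of the difference 0.0132). C1qtnf3 rose by 1.09 and then fell by 0.90 (adjusted p of the difference 0.0132). Rflnb on B rose by 1.10, and its later change was -0.35 (adjusted p of the difference 0.0189). Id3 fell by 1.11 on the log2 scale, with a later change of 0.23 (adjusted p of the difference 0.0181), and Car2 fell by 1.57, with a later change of 0.01 (adjusted p of the difference 0.0286). For both of these genes the readings at 48 h stayed near those at 24 h.

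**Figure D4:**
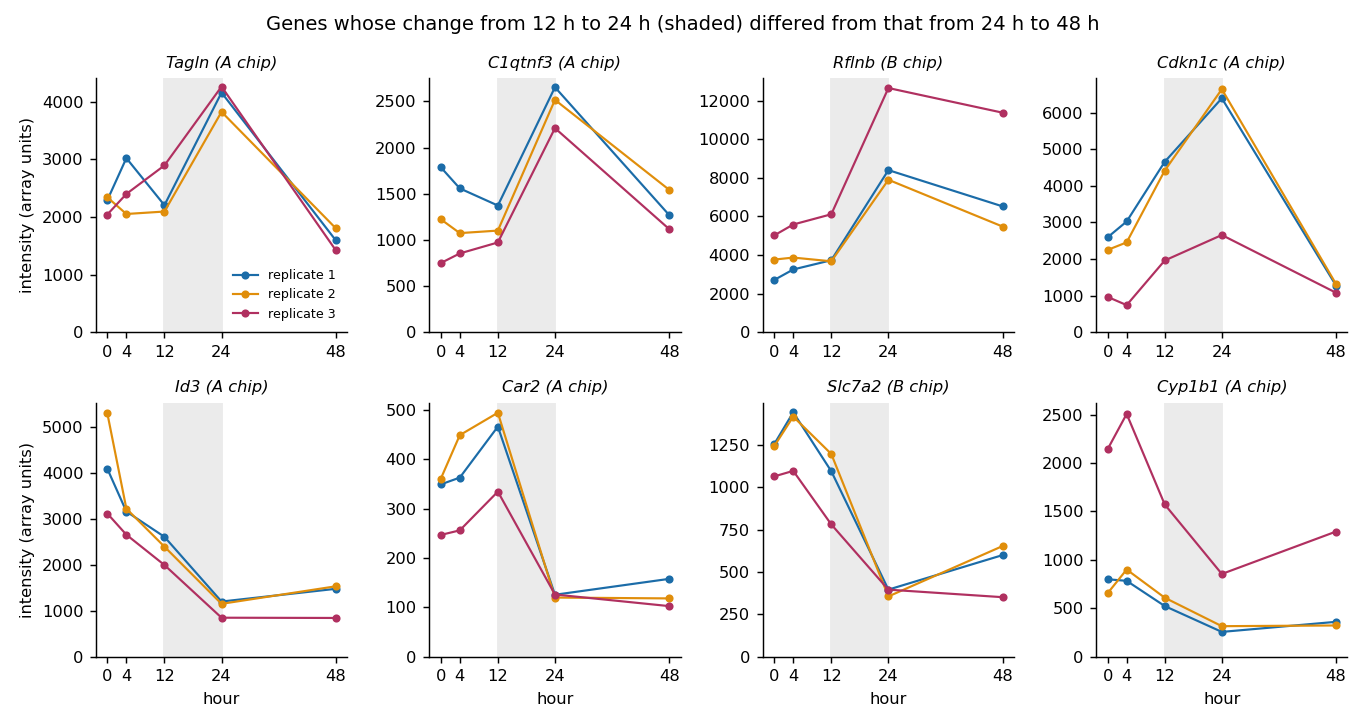
Intensity (array units, axes from 0) at 0, 4, 12, 24 and 48 h in each of the 3 replicates (lines) for 8 genes whose change from 12 h to 24 h (shaded) differed from that from 24 h to 48 h. Tagln and C1qtnf3 peaked at 24 h in all replicates, while Id3 and Car2 stayed low after 24 h.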

How the data were processed

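Per the labels' protocols, RNA was hybridised by the manufacturer's standard procedure. The deposited values are linear intensities, 1 per probe set and array. Their trimmed means show that the authors scaled each array to a common level. The software and the genome build were not given in the sources used here. Log2(deposited intensity + pseudocount) was computed with the 20th percentile of each chip as pseudocount (29 and 54). Tests covered the brightest 60% of each chip's probe sets (mean log2 value over its arrays), without the 64 control probe sets of each chip, by limma 3.58.1 in R 4.3.3 (lmFit, contrasts, eBayes with trend) over the 15 arrays of a chip, two-sided, with Benjamini-Hochberg adjustment per chip. The batch model adds replicate 3 as a term. Each gene was represented by its brightest tested probe set, from A where tested. Probe sets were named from GEO's platform annotation, with 20393 of 22690 A and 14674 of 22575 B probe sets naming 1 gene.

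The comparison, gene lists and rules were chosen with earlier results of these data known. Named genes were the called genes with the largest changes (10 rises and 10 falls on A, 5 and 5 on B, the same way in all 3 pairs), any called with hour as the only factor (0), 34 genes whatever their test, up to 4 called members of each list described, and the 5 per direction on A whose step differed most clearly from a neighbouring step. Deviations from the hour means of same-numbered arrays at 12 h and 24 h correlated at 0.457 to 0.694 on A and 0.154 to 0.329 on B, and the numbers were taken to pair the samples. Replicates 1 and 2 correlated with each other's number at 0.372 and 0.483 on A and 0.00705 and 0.0768 on B, so on A the numbers do not tell replicates 1 and 2 apart. On data simulated for this step, the batch model recovered 79% of 2-fold changes on A and 46% on B. The model with hour alone recovered 53% and 32%. Recovery where the step in replicate 3 differs from that in replicates 1 and 2 was not tested. These percentages therefore do not rank the models for the deposited arrays. The alternatives were other normalizations, pseudocounts, filters, variance models, array weights, fewer arrays, a 2-fold limit and the replicate block.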

Additional observations from a re-analysis of the deposited data

Results flagged for a closer look

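The steps from 12 h to 24 h and from 24 h to 48 h differed at an adjusted p under 0.05 (limma, batch model) for 19 of the probe sets named, and values below are the first step minus the second on the log2 scale. The steps share the 24 h arrays, so an array that reads high at 24 h moves both. On A the difference was positive for Tagln (2.11), Dnaja4 (1.69), Fgf21 (2.38), Ptgis (2.05), Cdkn1c (2.46), Ankrd2 (2.14), C1qtnf3 (1.99), Rflnb (1.52), Cnn3 (2.29) and Pmepa1 (1.35). It was negative on A for Rpl37a (-2.53), Id3 (-1.34), Car2 (-1.58), Cyp1b1 (-1.25) and Lpcat1 (-1.95). On B it was 2.31 for Acta2, 1.45 for Rflnb, 1.04 for Sox11 and -1.68 for Slc7a2. Ptgis, which makes prostacyclin, had a first change of -0.07 and then fell by 2.13, and Dnaja4, a chaperone, had one of 0.66 and then fell by 1.03, so for these the first step itself did not pass the test.

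The step in replicate 3 differed from that in replicates 1 and 2 for 2 B probe sets. For Cthrc1, a secreted matrix protein, the difference was 3.14 (adjusted p = 0.000586). It read 7301.0, 7466.6 and 74.1 at 12 h and 1508.1, 1470.2 and 181.0 at 24 h in replicates 1, 2 and 3. For Mylk4, a myosin light chain kinase, the difference was -1.80 (adjusted p = 0.0328), with 3645.4, 3465.1 and 12978.1 at 12 h and 7827.6, 6573.9 and 7420.9 at 24 h. Replicate 3 has 1 array per hour, so its own spread is taken from the others.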

How the results depend on the processing

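With 3 arrays per hour and 1 set of arrays (replicate 3) apart from the rest, the count of calls depends on how the spread is modelled, and few genes pass on every choice. With hour as the only factor, the A count of 0 became 41 with the batch term, 33 with the replicate block, 1 with quantile normalization, median centring or a pseudocount of 1, 2 with 4 times the pseudocount, 1174 with array weights and 366 in replicates 1 and 2 alone, and it was 0 to 1 when single arrays were left out. On B the 0 became 6, 3 with the replicate block and 149 in replicates 1 and 2 alone, and 0 to 1 without single arrays.

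In the batch model the A count of 41 became 22 with no filter, 306 from the 12 h and 24 h arrays alone, 27 with no intensity trend, 1059 with array weights, 20 at 2-fold or more and 366 in replicates 1 and 2 alone, and ranged from 10 to 89 without single arrays. The B count of 6 became 3 with the replicate block, with 0.5 times the pseudocount, with a pseudocount of 1 and with no filter, 1 from the 12 h and 24 h arrays alone, 0 with no intensity trend (limma, where 1239 had an unadjusted p under 0.05 with the trend), and 149 in replicates 1 and 2 alone, and ranged from 1 to 22. The differences from the step after, 19 on A and 44 on B, became 1 and 0 without the batch term, and 14 and 30 with the replicate block, a setting chosen after seeing the data. The cause of these moves was not tested.

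The check of signs covered the named genes and the list medians. It left out Sulf2, which was called on A at -0.86 and gave 0.13 on a B probe set (adjusted p = 0.826). Genes named after their values were seen were not checked either. Among them the A and B probe sets differed in sign for Fabp3 (1.31 and -0.33) and Vcan (-0.63 and 0.75). Acta2, also outside the check, gave -0.02 and 0.56. Among those checked, the changes that turned sign were near 0 in the main fit, except that of Cnn3 (1.18). Cnn3 was the only called gene among them. Under quantile normalization they were Actc1 (0.0846), Cdkn1a (0.0725), Igf2 (0.00624) and Myh4 (0.0221). Under median centring they were Actc1 (0.00294), Cdkn1a (0.0656), Mef2a (0.0338), Myh4 (0.0242), Ptgis (0.00121) and Top2a (0.0218), and the medians of G1 control (0.0121) and Wnt signalling (0.0393). With array weights they were Acta1 (-0.000192) and Chrna1 (-0.0308), and in replicates 1 and 2 alone Cdkn1a (0.0171), Chrna1 (-0.0535) and Ptgis (0.0491). Another probe set turned the sign of Cdkn1a (0.102), Igf2 (0.419), Mef2a (0.0523 and 0.0947) and Cnn3 (-0.0221), and the mean of probe sets that of the muscle markers' median (-0.0204). Without single arrays Acta1 ranged from -0.00972 to 0.0622, Actc1 from -0.21 to 0.00371, Cdkn1a from -0.0715 to 0.0238, Chrna1 from -0.101 to 0.074, Myh4 from -0.287 to 0.167, Ptgis from -0.172 to 0.112 and Top2a from -0.341 to 0.0929.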
